A study of Mus musculus with 6 samples.

Results

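The transcripts of the mitochondrial genome are the products of the 37 genes carried by mitochondrial DNA. They were taken from the deposited table of 37924 genes as the rows whose symbol begins with mt-, and comprised 13 mRNA, 2 rRNA and 22 tRNA genes. They were read in 6 RNA sequencing libraries from ovaries of mice of the strain C57BL/6J/129S7/SvEvBrd at postnatal day 14, each library made from a pool of 1 ovary from each of 3 mice. The control group (3 pools) was homozygous for a floxed allele and had no Cre. The group called cKO here (3 pools) was homozygous for the same floxed allele and carried Gdf9iCre, in which the Gdf9 promoter, active in oocytes, drives the recombinase Cre, so that both groups share the floxed allele and differ by the Cre. The comparison asks which ovarian transcripts differ once Cre has acted in oocytes, and since whole ovaries were sequenced, fewer cells of a type and less RNA per cell cannot be told apart in any value below.

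Mitochondrial DNA is a small circle transcribed from both strands as long precursors. Most mRNAs in these precursors are flanked by tRNAs, and excision of the tRNAs releases the mRNAs and rRNAs. The proteins are core subunits of complexes I, III, IV and V of the respiratory chain, whose other subunits, like the ribosome and polymerase of the organelle, are encoded in the nucleus. Oocytes are known for a large stock of mitochondria, and granulosa cells and steroid-producing cells of the ovary depend on them as well.

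On the mm10 build, GENCODE M21 places 12 of the 13 mRNA genes, both rRNA genes and 14 tRNA genes on the plus strand of chromosome M, and mt-Nd6 and 8 tRNA genes on the minus strand. All are single-exon genes. The tRNA genes span 59 to 75 bases, the mRNA genes 204 to 1824 bases. The sequences shown here are the features on which the values turn. The first is mt-Atp8 (chrM:7766-7969, plus strand), whose final 43 bases, in capitals, are also the first bases of mt-Atp6, so that fragments there belong to both genes. In the pair of short ends that follows (chrM:10134-10173 and chrM:10167-10206), the 7 bases in capitals are shared by mt-Nd4l and mt-Nd4.

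mt-Atp8: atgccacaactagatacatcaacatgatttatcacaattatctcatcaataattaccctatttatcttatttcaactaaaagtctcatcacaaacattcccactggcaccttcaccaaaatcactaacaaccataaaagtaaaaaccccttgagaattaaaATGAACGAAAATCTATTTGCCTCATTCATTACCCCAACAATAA
mt-Nd4l, 3′ end: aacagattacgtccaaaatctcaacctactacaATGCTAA
mt-Nd4, 5′ end: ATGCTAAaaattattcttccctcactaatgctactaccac

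The next set shows mt-Nd3 (chrM:9459-9806; the first 300 of 348 bases, chrM:9459-9758, are printed), the mRNA whose share in cKO 1 departed most from the controls, between the genes of its flanking tRNAs, mt-Tg (chrM:9391-9458) and mt-Tr (chrM:9808-9875). There are 0 bases between mt-Tg and mt-Nd3 and 1 base between mt-Nd3 and mt-Tr.

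mt-Tg: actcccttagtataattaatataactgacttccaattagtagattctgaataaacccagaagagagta
mt-Nd3, first 300 bases: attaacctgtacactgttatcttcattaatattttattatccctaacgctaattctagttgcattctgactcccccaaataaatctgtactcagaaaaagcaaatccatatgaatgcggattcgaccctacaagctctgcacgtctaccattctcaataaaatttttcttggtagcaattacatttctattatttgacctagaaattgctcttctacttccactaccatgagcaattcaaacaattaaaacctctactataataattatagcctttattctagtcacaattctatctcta
mt-Tr: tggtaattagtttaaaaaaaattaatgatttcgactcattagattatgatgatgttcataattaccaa

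All 22 tRNA genes were listed at 0 in all 6 libraries. The same held for every one of the 1701 genes outside the mitochondrial genome with less than 100 bases of exon, whereas 203 of 3265 genes with 100 to 199 bases were above 0 in at least 1 library. The zeros of the tRNA genes are therefore shared by every gene of their size in the table and give no level of the tRNAs. The tests below cover the 15 mRNA and rRNA genes, all of which passed the filter on low values.

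Levels are in FPKM, fragment numbers divided by the gene's length and by the depth of the library. Depth, estimated from the lowest values, ran from 19.6 to 24.9 M fragments (M for 1e6). The mitochondrial mRNAs were among the most abundant transcripts of the ovary, with 5 to 8 of the 10 highest FPKM values in each library. mt-Atp8, which encodes a small subunit of ATP synthase, ranked first of all genes in 5 libraries and second in cKO 1. By the same estimate the fewest fragments behind a tested gene were 2911, for mt-Rnr1 in cKO 1, and the most were 439257, for mt-Co1 in control 2. These numbers depend on the length assigned to each gene and on the estimated depth.

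**Figure D1:**
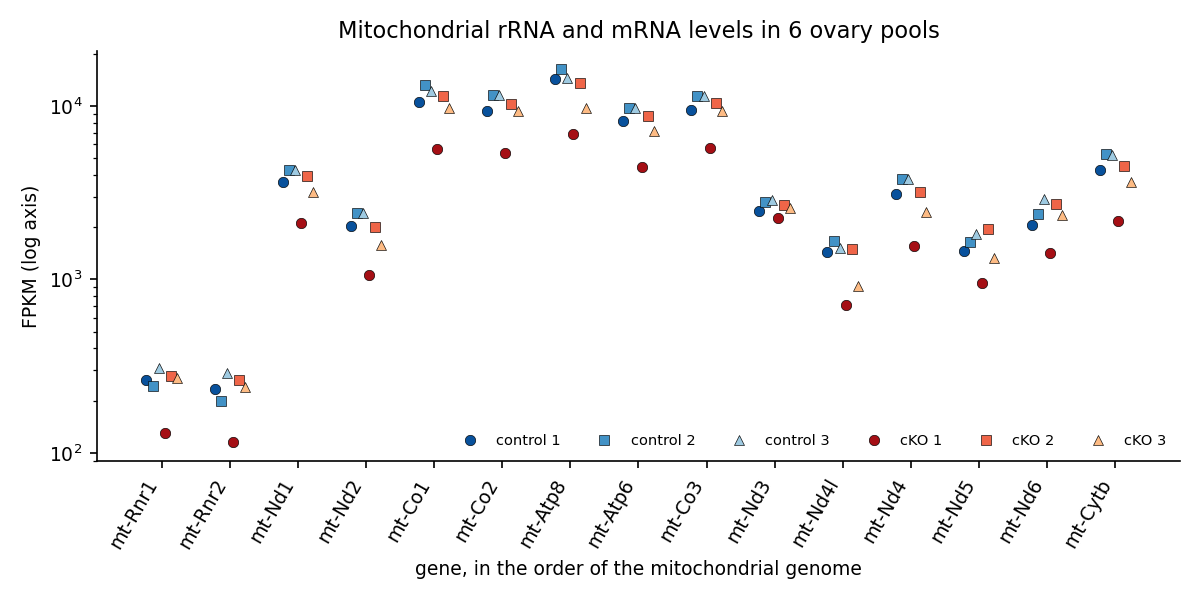
FPKM on a log axis of the 15 mitochondrial rRNA and mRNA genes, in genome order, with 1 point for each of the 3 control (blue) and 3 cKO (red) pools. The cKO 1 point is the lowest for all 15 genes, and the rRNA genes lie between 115 and 309 FPKM, below every mRNA.

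One library stood apart. In cKO 1 all 15 genes were below the range of the controls, with 0 exceptions. In cKO 2, 12 of the 15 were inside the control range, 2 below it and 1 above it, and in cKO 3, 11 were below it and 4 inside. The 13 mRNAs together took 11.8% (control 1), 13.8% (control 2) and 14.1% (control 3) of the summed FPKM. In the other group they took 7.26% (cKO 1), 13.8% (cKO 2) and 10.6% (cKO 3). The groups overlap, with cKO 2 level with control 2. The mean share was 13.2% ± 1.25 in control and 10.6% ± 3.26 in cKO (SD, n = 3), a log2 ratio of -0.33 that became -0.12 without cKO 1. The share of fragments is less certain, because 2 estimates of it differed. As a percent of the estimated depth, all mitochondrial genes made up 5.90% to 7.12% in control and 3.29% (cKO 1), 6.39% (cKO 2) and 5.33% (cKO 3). The estimated depth itself cancels out of this percent, which rests on the definition of FPKM. As a percent of the sum over genes of FPKM times exon length, they made up 2.90% to 3.56% in control and 1.66% (cKO 1), 3.37% (cKO 2) and 2.67% (cKO 3). That sum was 1.90 to 2.04 times the one that the definition of FPKM gives, for a reason not tested. The 2 estimates have the same numerator and differ only by this factor. That cKO 1 was the lowest library by both is therefore not independent evidence.

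cKO 1 was not the lowest library in estimated depth or in FPKM outside the mitochondrial genome. Its estimated depth was 23.3 M fragments. Its summed FPKM outside the mitochondrial genome was 514591, within the range of 479511 to 540335 over the 6 libraries. With the mitochondrial genes included, its summed FPKM was the lowest of the 6. FPKM is already divided by depth, so these sums cannot show whether a library was low in general. The numbers in the library titles, whose meaning is not stated, put cKO 1 with the 3 controls in 1 range and cKO 2 and cKO 3 in another. Fitted in the shared range alone, cKO 1 minus the 3 controls gave log2 changes of -1.19 to -0.28 for the 15 genes, 0 of which passed at an adjusted p of 0.101 or more, if the lone cKO pool is taken to vary like the controls. No control has a title number in the other range, so no such value can be given there.

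**Figure D2:**
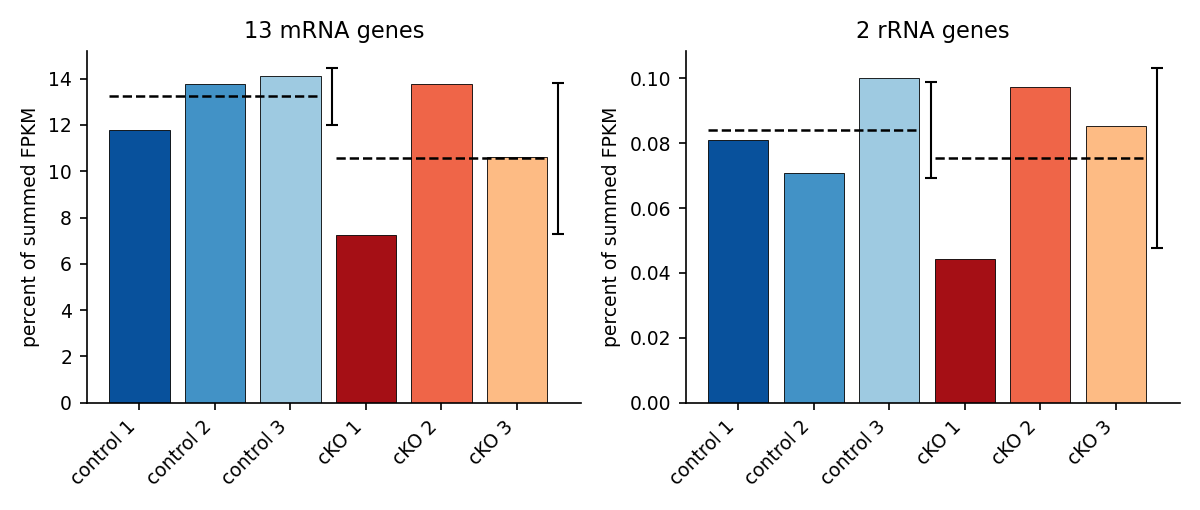
Percent of each library's summed FPKM held by the 13 mRNA genes (left) and the 2 rRNA genes (right). Bars are single pools, dashed lines are group means and error bars are SD over 3 pools. cKO 1 has the shortest bar in both panels, at 7.26% and 0.0442%, while cKO 2 lies within the control range.

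In the test of cKO against control none of the 15 genes passed (limma across all 14934 tested genes, adjusted p from 0.156 to 0.635), against a background of 4.33% of all tested genes, 2.09% lower and 2.24% higher in cKO. All 15 had a negative log2 change, as did 41.5% of all tested genes, and the median was -0.44 against 0.05 over all tested genes. An unadjusted p below 0.05 was reached by 4 of the 15, mt-Nd2, mt-Nd4l, mt-Nd4 and mt-Atp8, against 9.80% of all tested genes on the lower side. With 1 library left out, that count was 0 without control 2, control 3, cKO 1 or cKO 3, against 6.15%, 9.87%, 8.58% and 10.3% of all tested genes. It was 2 without control 1, against 6.90%, and 9 without cKO 2, against 8.07%, and 0 passed in any of these 6 fits. Without cKO 1 the log2 changes ran from -0.39 to 0.08, and 12 of the 15 were negative. The groups did not overlap for mt-Nd2 and mt-Atp8, 2 of 15, where 12.0% of all tested genes were lower and 18.0% higher without overlap.

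**Figure D3:**
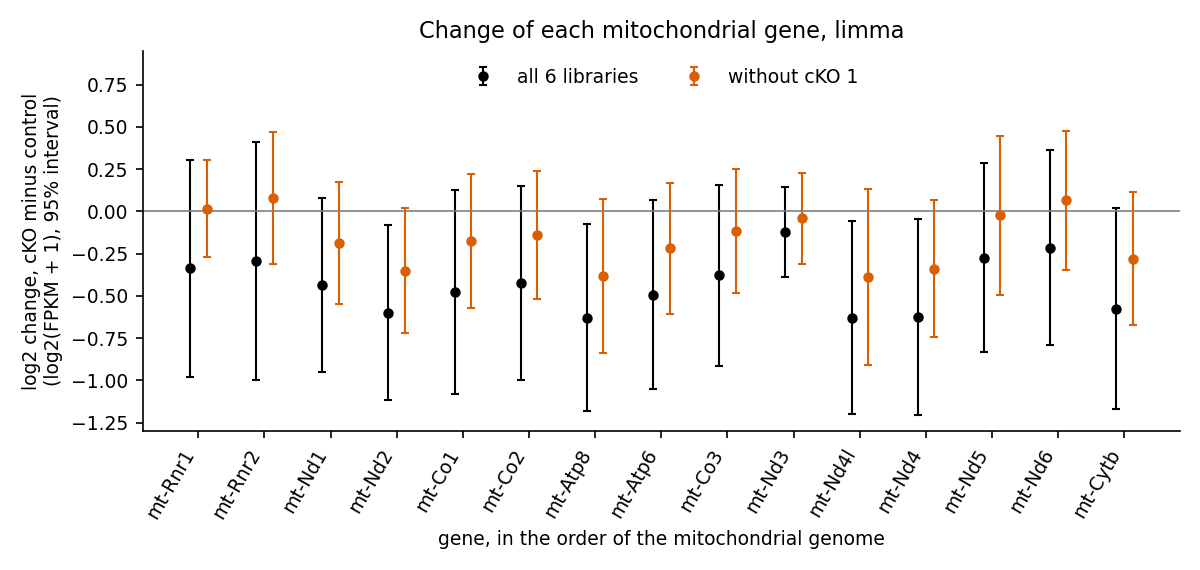
Log2 change of each gene, cKO minus control, on the log2(FPKM + 1) scale, with the 95% interval from limma. Black points use all 6 libraries and orange points leave out cKO 1; for all 15 genes the orange point lies closer to or above zero, and its interval includes zero.

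Complex I, which takes electrons from NADH, has 7 mitochondrially encoded subunits, whose mRNAs had log2 changes from -0.63 to -0.12. SE is the standard error of the fit. mt-Nd2 read 2019, 2406 and 2426 FPKM in control 1 to 3 and 1063, 2015 and 1580 FPKM in cKO 1 to 3. The cKO pools lie below the controls, cKO 2 barely so. The log2 change was -0.60 (SE 0.22, limma, adjusted p 0.156). mt-Nd4 read 3093, 3789 and 3803 FPKM in control and 1551, 3186 and 2461 FPKM in cKO, with cKO 2 above control 1. Its log2 change was -0.62 (SE 0.25, limma, adjusted p 0.180).

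mt-Nd3, also of complex I, differed the least between the groups. It read 2491, 2789 and 2879 FPKM in control and 2243, 2686 and 2587 FPKM in cKO, a log2 change of -0.12 with a 95% interval from -0.39 to 0.15. The other 14 genes stood at 43.6% to 58.2% of their control mean in cKO 1, and mt-Nd3 at 82.5%. mt-Nd1 and mt-Nd5 had log2 changes of -0.44 and -0.27. mt-Nd5 was the only gene whose highest value lay in a cKO pool, 1945 FPKM in cKO 2, where control 3 read 1836 FPKM.

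mt-Nd6, the complex I mRNA copied from the opposite strand, read 2058, 2365 and 2888 FPKM in control and 1411, 2702 and 2357 FPKM in cKO. cKO 2 and cKO 3 lie inside the control range. Its log2 change was -0.22 with a 95% interval from -0.79 to 0.36, and it was 0.06 without cKO 1. It overlaps mt-Nd5 by 14 bases on the other strand, and the strand setting of the counting is not given in the sources used here, so fragments of the antisense partner cannot be told apart in its value.

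mt-Nd4l, the smallest of the 7 complex I mRNAs, cannot be separated from a nuclear copy. The pseudogene Gm10222 (chr1, start 24612407 on mm10) matches 294 of its 297 bases at 100% identity. mt-Nd4l read 1444, 1665 and 1511 FPKM in control and 712, 1498 and 921 FPKM in cKO, and Gm10222 read 1445, 1667, 1516, 713, 1500 and 923 FPKM in the same order. The difference was between 0.0589% and 0.329% of mt-Nd4l, so the pair carries the same value in every library and the FPKM of mt-Nd4l is uncertain. With both summed, the log2 change was -0.63 (limma, adjusted p 0.178), as for mt-Nd4l alone (adjusted p 0.176).

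Other nuclear copies were found by matching the mitochondrial transcripts to all GENCODE M21 transcripts at 85% identity or more over at least 100 bases. There were 19 such genes, matching 12 of the 37 genes, and 11 of them had a row in the table. On chromosome 1, copies at 99.7% to 100% identity match all or part of mt-Co1, mt-Co2, mt-Atp6, mt-Co3, mt-Nd3, mt-Nd4l and mt-Nd4, and of these only Gm10222 had a row. On chromosome 2, Gm13341, at 95.9% identity to mt-Co2, read 163, 208 and 255 FPKM in control and 97.2, 175 and 156 FPKM in cKO, which is 1.67% to 2.22% of mt-Co2. Gm13340, at 97.6% identity to mt-Co1, stood at 0.429% to 0.795% of mt-Co1. Both were lowest in cKO 1 as well, and how much of their FPKM comes from mitochondrial fragments was not tested.

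Complex III holds a single mitochondrially encoded protein, cytochrome b. mt-Cytb read 4270, 5303 and 5202 FPKM in control and 2180, 4496 and 3627 FPKM in cKO. cKO 2 lies inside the control range, and the log2 change was -0.58 (SE 0.25, limma, adjusted p 0.218).

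The 3 catalytic subunits of complex IV, cytochrome c oxidase, were expressed at 9530 to 10448 FPKM on average over the 6 libraries. mt-Co1 read 10581, 13185 and 12135 FPKM in control and 5620, 11426 and 9744 FPKM in cKO, with cKO 2 inside the control range. The log2 changes of mt-Co1, mt-Co2 and mt-Co3 were -0.48, -0.43 and -0.38 (limma, adjusted p 0.306 to 0.358). Summed over the 3 genes, cKO 2 and cKO 3 stood at 95.7% and 84.7% of the control mean, and in cKO 1 the single genes stood at 47.0% to 53.4%.

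Complex V, ATP synthase, has the pair mt-Atp8 and mt-Atp6, which leave the precursor on 1 shared mRNA. mt-Atp8 read 14260, 16227 and 14471 FPKM in control and 6874, 13520 and 9753 FPKM in cKO, all cKO pools being below all controls. Its log2 change was -0.63 (SE 0.24, limma, adjusted p 0.164). mt-Atp6 had a log2 change of -0.49. The ratio of mt-Atp8 to mt-Atp6 was 1.74, 1.67 and 1.49 in control and 1.54, 1.55 and 1.37 in cKO, and the groups overlap. FPKM of genes this short depends on how the authors' tool treated fragment length, which is not given in the sources used here.

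The rRNAs of the organelle's ribosome were far below the mRNAs. mt-Rnr1, of the small subunit, read 262, 244 and 309 FPKM in control and 131, 278 and 268 FPKM in cKO. mt-Rnr2, of the large subunit, read 235, 200 and 288 FPKM in control and 115, 263 and 240 FPKM in cKO. Both were lowest in cKO 1, and both lay inside the control range in the other cKO pools. Their log2 changes were -0.34 and -0.30 with all libraries and 0.02 and 0.08 without cKO 1. The mRNAs summed to 146, 194 and 141 times the rRNAs in control and 164, 142 and 125 times in cKO, so the groups overlap. Whether the library preparation selected polyadenylated RNA or removed rRNA is not given in the sources used here.

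The share of each mRNA in the sum of the 13 does not depend on how the libraries are scaled. For 6 of the 13 mRNAs these shares did not overlap between the groups. mt-Nd2 made up 2.79% to 2.89% in control and 2.49% to 2.64% in cKO, mt-Nd4 4.27% to 4.53% and 3.85% to 4.15%, and mt-Cytb 5.90% to 6.19% and 5.41% to 5.86%. On the other side, mt-Co3 made up 13.1% to 13.6% in control and 13.6% to 14.8% in cKO. mt-Nd3 made up 3.44%, 3.23% and 3.43% in control and 5.56%, 3.50% and 4.08% in cKO, and mt-Nd6 made up 2.84%, 2.74% and 3.44% in control and 3.50%, 3.52% and 3.72% in cKO. Of all tested genes divided by the same sum, 0.629% were lower and 30.9% higher in cKO without overlap. The mean of that sum was lower in cKO, so the division raises genes outside it, whereas the 13 shares have a fixed total. These percents therefore do not give the number expected among the 13 shares.

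The ratio of mt-Nd6 to the mean of the 12 plus-strand mRNAs was 0.372 ± 0.0479 in control and 0.446 ± 0.0159 in cKO (SD, n = 3), without overlap. An exact permutation test of 3 pools against 3 cannot give a p below 0.1, so no such test was made. In the limma fit with libraries centred on the mean of the 13 mRNAs, mt-Nd3 had a log2 change of 0.33 (SE 0.27, adjusted p 0.374) and mt-Nd6 one of 0.24 (adjusted p 0.486). Neither difference from that mean passed the test.

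**Figure D4:**
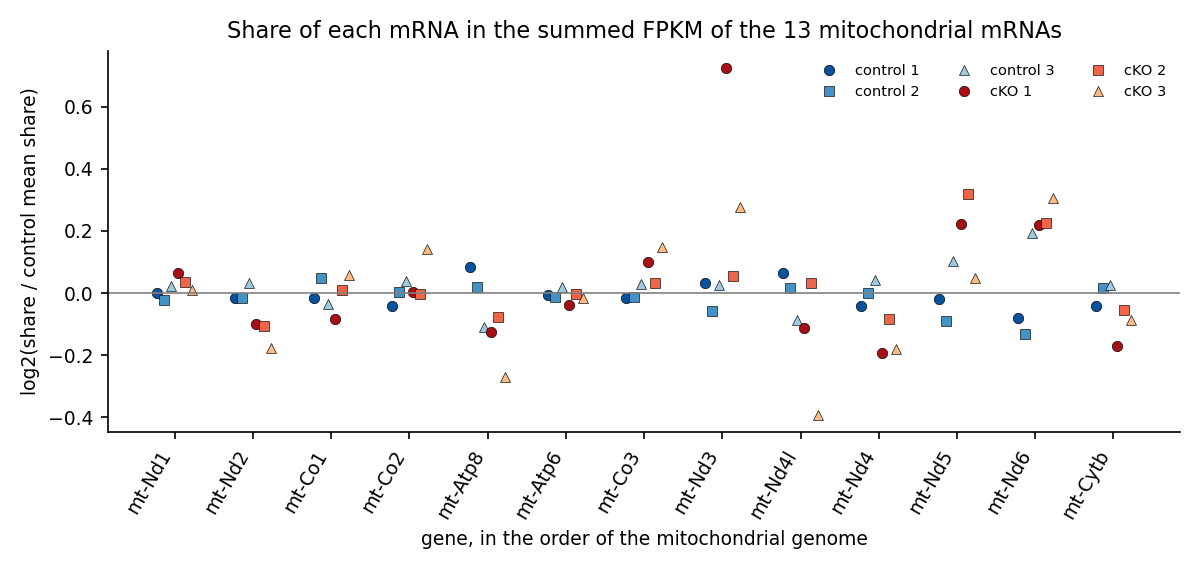
Share of each mRNA in the summed FPKM of the 13 mitochondrial mRNAs, as the log2 ratio to the control mean share, with 1 point per pool. The farthest point is mt-Nd3 in cKO 1 at 0.72, and the lowest is mt-Nd4l in cKO 3 at -0.39.

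Nuclear genes that make, process and use these transcripts were read from 11 lists with 292 tested members. Of these 8 fell and 1 rose, 2.74% lower against 2.09% of all tested genes, a share near that background. A negative log2 change was found for 80.5% of the members, with a median of -0.11, against 41.5% and 0.05 over all tested genes. Of 18 reference genes for scaling, such as Actb and Rpl13a, 12 had a negative log2 change, with a median of -0.09. The 9 passing genes kept their direction when any 1 library was left out, but 0 of them passed without control 1, without control 2, without cKO 1 or without cKO 2, 4 passed without control 3 and 6 without cKO 3. All 9 passed when centred on the median or with array weights, 7 after quantile normalisation, 4 when centred on reference genes and 0 with no filter. Centred on the mitochondrial mRNAs, 0 passed and 6 kept their direction.

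Slirp encodes an RNA-binding partner of Lrpprc that stabilises mitochondrial mRNAs. It read 66.9, 61.6 and 67.2 FPKM in control and 43.4, 45.4 and 53.2 FPKM in cKO, with no overlap. It fell by 0.46 on the log2 scale (limma, adjusted p 0.0434), and was the only one of 36 tested genes of RNA processing and stability to pass. The list had a median of -0.09. Of 21 genes of transcription and replication of mitochondrial DNA 0 passed, with a median of -0.02. The DNA-binding protein gene Ssbp1 of that list stood at 52.4 ± 1.76 FPKM in control against 46.3 ± 2.87 FPKM in cKO, and the protease gene Lonp1 42.9 ± 3.32 and 45.8 ± 4.65 FPKM (SD, n = 3).

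Among 89 genes of the mitochondrial ribosome and translation factors 2 fell, the large-subunit protein genes Mrpl42 and Mrpl33, by 0.35 and 0.52 on the log2 scale (limma, adjusted p 0.0427 and 0.0493), and 80 had a negative log2 change. Of 22 genes of aminoacyl-tRNA synthetases and related enzymes, which charge the tRNAs, 1 fell. This was Yars2, the tyrosine enzyme, at 16.8 ± 0.748 FPKM in control against 11.9 ± 1.32 FPKM in cKO (SD, n = 3; limma, adjusted p 0.0459).

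Of 80 nuclear subunit genes of complexes I to V, 2 fell, 1 rose and 72 had a negative log2 change, with a median of -0.15. Ndufs4 of complex I read 75.7, 74.4 and 67.1 FPKM in control and 47.4, 45.5 and 55.4 FPKM in cKO and fell by 0.54 on the log2 scale (limma, adjusted p 0.0332). Cox7a2 of complex IV fell by 0.40 and the testis-type subunit gene Cox6b2 rose by 0.57. In complexes II, III and V 0 of 4, 9 and 16 tested genes passed. Sdha of complex II, which has no mitochondrially encoded subunit, stood at 113 ± 2.16 FPKM in control against 109 ± 11.5 FPKM in cKO, Uqcrh of complex III 418 ± 13.8 and 403 ± 30.6 FPKM, and Atp5b of complex V 774 ± 14.0 and 604 ± 58.4 FPKM (SD, n = 3).

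Of 27 genes for mitochondrial mass and biogenesis 1 fell, Cycs, which encodes cytochrome c. It read 66.1, 66.3 and 62.0 FPKM in control and 42.5, 47.6 and 46.5 FPKM in cKO, a fall of 0.50 on the log2 scale (SE 0.08, limma, adjusted p 0.0240). Of 17 genes for fusion, fission and turnover 1 fell, the mitophagy receptor gene Bnip3, by 0.45 on the log2 scale (adjusted p 0.0275).

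The 2 genomes did not place the pools in the same order. The mean log2 level of the 13 mitochondrial mRNAs relative to the control mean was -0.96, -0.04 and -0.36 in cKO 1 to 3, while that of the 80 nuclear subunit genes was -0.16, -0.20 and -0.05. cKO 1 was thus lowest for the mitochondrial mRNAs, and cKO 2, inside the control range for most of them, was lowest for the nuclear subunits. The 18 reference genes for scaling stood at -0.02, -0.18 and -0.02 in cKO 1 to 3, so they too were lowest in cKO 2.

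**Figure D5:**
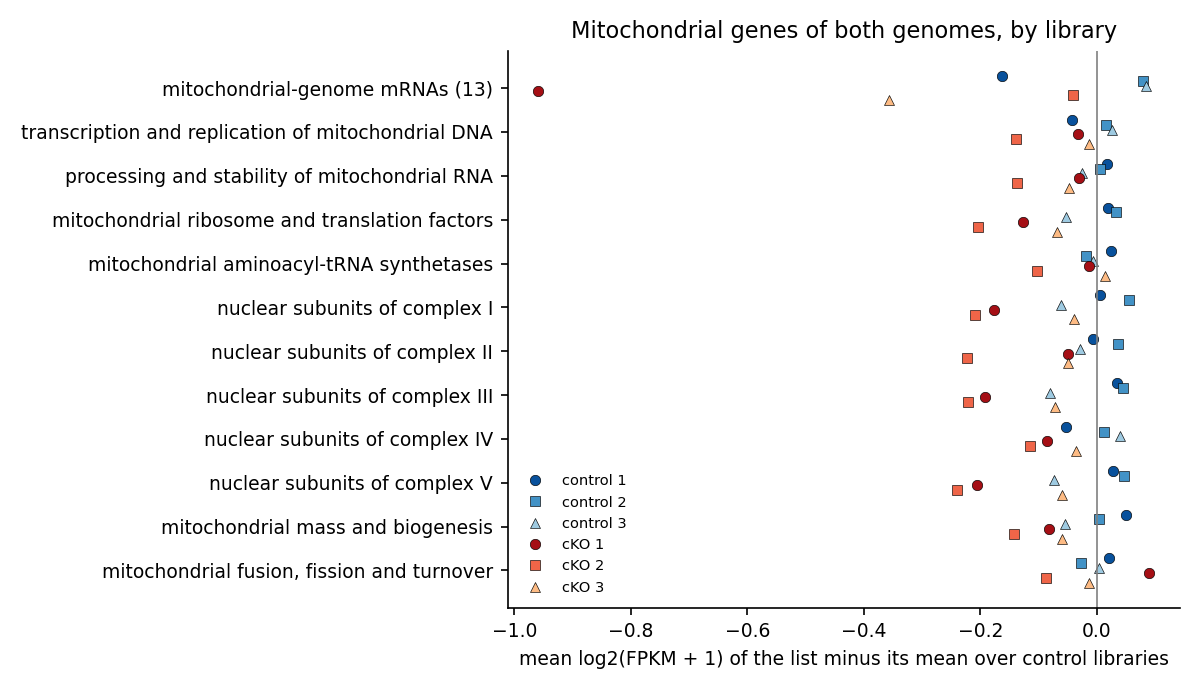
Mean log2(FPKM + 1) of the 13 mitochondrial mRNAs and of 11 nuclear lists in each pool, minus the mean over the control pools. The mitochondrial mRNAs reach -0.96 in cKO 1, whereas the nuclear lists stay between -0.24 and 0.09 in all 6 pools.

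Gdf9 itself, the source of the promoter that drives the Cre, read 197, 237 and 228 FPKM in control and 259, 198 and 343 FPKM in cKO, and the groups overlap (limma, adjusted p 0.476). Markers of the ovary's cell types were present in all libraries. The summed FPKM of 12 oocyte markers was 1125 to 1280 in control and 1515 to 2305 in cKO, and 3 of the 12 rose (Zp2, Zp3 and Figla), where 2.24% of all tested genes rose and 2.09% fell. Of the 12, 2 had a negative log2 change. Bmp15, 1 of them, read 51.8, 60.4 and 29.5 FPKM in control and 14.6, 30.9 and 48.6 FPKM in cKO. The summed FPKM of 10 granulosa cell markers was 2761 to 3531 in control and 1851 to 2235 in cKO, and 4 of the 10 fell (Inha, Inhbb, Hsd17b1 and Fst). Inha alone read 1767 to 2239 FPKM in control and 1101 to 1416 FPKM in cKO. Of the 10, 7 had a negative log2 change. Foxl2 (77.5 to 89.2 and 93.2 to 140 FPKM) and Kitl (33.2 to 46.1 and 47.9 to 79.8 FPKM) were higher in every cKO pool, but neither passed. For 7 theca and steroid cell markers the sums were 1452 to 1669 in control and 1501 to 1886 in cKO, highest in cKO 1, and 0 passed. Most of each sum was Hsd3b1, which alone read 1165 to 1528 FPKM over the 6 libraries. By mean log2 level relative to the control mean, which weighs the 7 markers equally, cKO 2 was the highest library. It stood at 1.18, against 0.82 for cKO 1. Of the 7, 1 had a negative log2 change, and the median was 0.58. cKO 1 held neither extreme among the cKO pools for the sums of the oocyte and granulosa cell lists, with 1848 and 2167. Of the oocyte markers, Bmp15 and Oosp1 were lowest in cKO 1 among all 6 libraries, at 14.6 and 44.1 FPKM. In the sums of 2 other lists cKO 1 was an extreme. It was the lowest of the 6 libraries for 7 surface epithelium markers, at 98.3 against 130 to 242, and the highest for 8 stroma and smooth muscle markers, at 1570 against 1156 to 1367, and 0 of the 7 and 2 of the 8 rose. Control 3, which had the highest mitochondrial share, had a summed FPKM of 40.4 for 7 adipocyte markers, against 14.7 to 17.2 elsewhere. Of the 5 tested, 4 had a negative log2 change, with a list median of -0.59, and 1 rose, Plin1. Plin1 read 6.18, 6.79 and 4.95 FPKM in control and 13.9, 10.6 and 11.8 FPKM in cKO, and was lowest in control 3. The summed FPKM of 6 red blood cell markers ranged from 2021 to 6278 in control and from 924 to 4177 in cKO, and 8 immune cell markers read 591 in cKO 3 against 26.7 to 40.1 elsewhere. The immune sum in cKO 3 is mostly S100a8 and S100a9, at 219 and 307 FPKM there and 0.853 FPKM or less elsewhere. Lyz2 was also highest in cKO 3, at 48.2 FPKM, while Cd68, Adgre1 and Csf1r lay inside the range of the other pools. Of the red blood cell markers 0 passed. Of the immune cell markers 1 rose, Cpa3, which read 9.09, 7.75 and 4.89 FPKM in cKO 1 to 3. Of 6 oviduct and ciliated epithelium markers, with sums of 67.8 to 72.9 in control and 99.8 to 113 in cKO, 4 were tested and 1 rose. These sums are mostly Wt1, at 66.3, 63.7 and 70.5 FPKM in control and 110, 92.7 and 106 FPKM in cKO. No other marker of that list was above 5.33 FPKM in any library, and Foxj1, Dnah5 and Tekt1 stayed at 1.05 FPKM or less. No marker in these lists was at 0 in all libraries. The part of these cell types in the mitochondrial values was not tested.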

How the data were processed

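RNA sequencing was done on 3 control and 3 cKO ovary pools. The authors deposited gene FPKM values. The submitters' processing notes name TopHat2 2.0, Cufflinks 2.0 and mm10 but not what each was used for. Which annotation, filters or scaling applied is not given in the sources used here. Groups came from the genotype label, and replicate numbers follow accession order and only name libraries. The name of the floxed gene is not reported here.

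The comparison used linear models of limma 3.58.1 (R 4.3.3, variances moderated with a trend on mean level) fitted to log2(FPKM + 1), for genes with a mean FPKM of at least 0.5, with Benjamini-Hochberg adjustment over 14934 genes and a threshold of 0.05. Fold changes on this scale understate low genes. Rose, fell and changed are used only of genes that passed. The procedure was tested on simulated data. Depth was estimated by reading FPKM below 0.15 as 1 fragment in single-transcript genes of 1500 or more exonic bases, shortened by 150 bases. Lengths came from GENCODE M21 (36158 genes matched by identifier), and nuclear copies from BLAST+ 2.17.0.

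The members and lists were chosen with earlier results of these data known. All 15 tested members are named, with up to 4 passing genes per nuclear list, or the 2 most abundant (of which 1 or 2 are given) where none passed. Of 412 list entries 402 were found, by symbol or identifier. Alternatives were other pseudocounts, filters, scalings, weights, denominators and left-out libraries.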

Additional observations from a re-analysis of the deposited data

How the results depend on the processing

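Of the 15 genes, 0 passed on the higher side under any of the 20 alternatives, and 0 on the lower side except with array weights, where 2 passed, mt-Nd4l at -0.77 (limma, adjusted p 0.0419) and mt-Atp8 at -0.75 (adjusted p 0.0454). Array weights raised the number passing on the lower side over all 14934 tested genes as well, to 743 from 312 in the main fit. Leaving out each library in turn gave 0 passing. Leaving aside the fit with cKO 1 as the lone cKO pool, the number at an unadjusted p below 0.05 ran from 0 to 9. The highest count was without cKO 2, where 8.07% of all tested genes were lower at that threshold. Direction reversed in 17 of 300 values, 0 of them past the threshold. Without cKO replicate 1, mt-Rnr1, mt-Rnr2 and mt-Nd6 were at 0.016, 0.079 and 0.064, against -0.53, -0.52 and -0.40 without cKO replicate 2. Without control 3 and cKO 1, an alternative chosen after the data were seen, mt-Rnr1, mt-Rnr2, mt-Nd5 and mt-Nd6 were at 0.11, 0.21, 0.059 and 0.19. With quantile normalisation mt-Nd3 and mt-Co3 were at 0.028 and 0.014. Centred on the 13 mRNAs, which by construction sets their mean to no change, mt-Rnr1, mt-Rnr2, mt-Nd1, mt-Co2, mt-Nd3, mt-Co3, mt-Nd5 and mt-Nd6 were at 0.12, 0.16, 0.016, 0.027, 0.33, 0.073, 0.18 and 0.24. This scaling moved the median of all genes from 0.05 to 0.50. Otherwise the cause was not tested. The log2 ratio of the mRNA share ran from -0.57 without cKO 2 to -0.07 without control 3 and cKO 1, and that of the rRNA share from -0.38 without cKO 2 to 0.26 without control 3 and cKO 1. For the ratio of mt-Nd6 to the mean of the plus-strand mRNAs, the log2 ratio of cKO to control stayed between 0.19 and 0.39.

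Over all genes 334 rose and 312 fell. With 1 library left out, 0 to 307 rose and 2 to 353 fell, the lowest counts being without control 1 (1 and 4), without control 2 or cKO 1 (0 and 2) and without cKO 2 (40 and 38). Without cKO 3 there were 209 and 176. Centred on the median, 254 rose and 577 fell, against 270 and 421 after quantile normalisation, 481 and 259 centred on reference genes, 1041 and 743 with array weights, 4 and 24 with no filter, 22 and 1 for the 3 controls against cKO 1, 22 and 81 without control 3 and cKO 1, and 216 and 19 centred on the mitochondrial mRNAs. No paired analysis was possible because no label numbers the replicates. The sum with Gm10222 was also chosen after the data were seen. What depth limits was not tested.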
